A study of Mus musculus with 15 samples.

Results

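Gene expression in tumours of mice that carry an APC mutation and lack Olfm4 was set against the colon of APC mutant mice that still have Olfm4. The tumour side holds the 3 arrays titled APC+/-/Olfm4-/- with the tumour mark, and the other side the 3 arrays with the genotype APC+/-/OLFM4(+/+) and no tumour label, together 6 of the series' 15 arrays. Both sides carry the heterozygous APC mutation. They differ in both tumour state and Olfm4 genotype, and the effects of these cannot be told apart in this contrast. The remaining groups of 3 arrays each are normal tissue beside the APC+/-/Olfm4-/- tumours (called adjacent here), Olfm4 mutant colon (APC+/+/Olfm4-/-) and wild type colon (APC+/+/Olfm4+/+). All were male mice aged 3 months, littermates matched for age and sex, on a hybrid background of C57BL/6 and 129. The study describes 3 mice per category, but the tumour titles carry 2 animal numbers: tumour arrays 2 and 3 share an animal and tumour array 1 comes from another. Elsewhere nothing states whether samples of a group came from separate litters or days, so p-values measure the spread between these arrays.

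Apc encodes a scaffold of the complex that marks beta-catenin for degradation. When the remaining copy of Apc is lost in an intestinal cell, beta-catenin accumulates, enters the nucleus and, with TCF/LEF factors, switches on Wnt target genes, many of which are normally restricted to the dividing cells at the base of the crypt. Differentiated absorptive, goblet and hormone-producing cells lie higher in the crypt and on the surface, and smooth muscle, enteric neurons and immune cells surround the epithelium. Olfm4 encodes olfactomedin 4, a secreted glycoprotein made by crypt base cells of the small intestine and by neutrophils, and reported as an inhibitor of Wnt and NF-kappaB signalling.

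Values below are log2 expression values made with RMA, so a difference of 1 is a doubling. One probe set stood for each of 18193 genes, and a gene rose or fell where limma's adjusted p for tumour minus APC mutant was under 0.05. A difference is written with its standard error after the ± sign, and means of 3 arrays with their SD. By this rule 8629 genes changed (47.4% of those tested), 5083 of them higher (27.9%) and 3546 lower (19.5%) in tumour. At least 2-fold changes were met by 2151 genes higher (11.8%) and 1991 lower (10.9%), and at least 8-fold changes by 281 higher and 195 lower. The 3 tumour arrays lay wholly above the 3 APC mutant arrays for 6465 genes (35.5%) and wholly below them for 4150 (22.8%). The median difference over all genes was 0.127. With so much of the transcriptome changed, each count of list members below is to be read against these shares.

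One technical measure moved with the groups. Bacterial RNAs added before labelling have probe sets at their 3' and 5' ends, and the difference between these averaged 4.94 ± 0.238 on tumour arrays against 2.31 ± 0.188 on APC mutant arrays, with no overlap. Adjacent arrays averaged 4.13, Olfm4 mutant arrays 2.75 and wild type arrays 2.12. The same difference for the control probe sets of Gapdh was 4.57 in tumour and 0.663 in APC mutant, and for Actb 4.29 and 1.83, while the hybridisation controls, which are not amplified, showed 0.32 and 0.38. With this measure as a covariate in the fit 6 genes passed, 2 higher and 4 lower. The covariate nearly coincides with the groups: the median standard error of the genes called without it grew to 0.661, against 0.195, and 77.6% kept their sign. Among text genes called either way, Tert rose and Cyp2c55, Car4 and Slc26a2 fell in that fit too. For genes with several probe sets, another probe set passed in the same direction for 51.4% of the higher genes and in the opposite direction for 19.6%, and for the lower genes these shares were 55.5% and 8.31%. Among called genes examined singly below, no other probe set passed for Axin2, Bop1, Bub1, Cldn18, Cxcl12, Hoxa9, Ighg3, Inhba, Inhbb and Kcnd3. The same held for Kit, Msi1, Ptger3, Rspo3, Shh, Sox10, Tert and Vegfa. What part the difference between 3' and 5' ends has in any single gene's result was not tested. The array numbers in the labels run in blocks by group, so that array order and group cannot be told apart. Tumour array 1 stood apart from tumour arrays 2 and 3 for many stromal and immune genes, and adjacent array 3 lay towards the tumour arrays for many genes. Correlations over genes between arrays of a group were 0.9859 to 0.9925 in tumour, highest for the pair from 1 animal, and 0.9872 to 0.9914 in APC mutant.

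**Figure D1:**
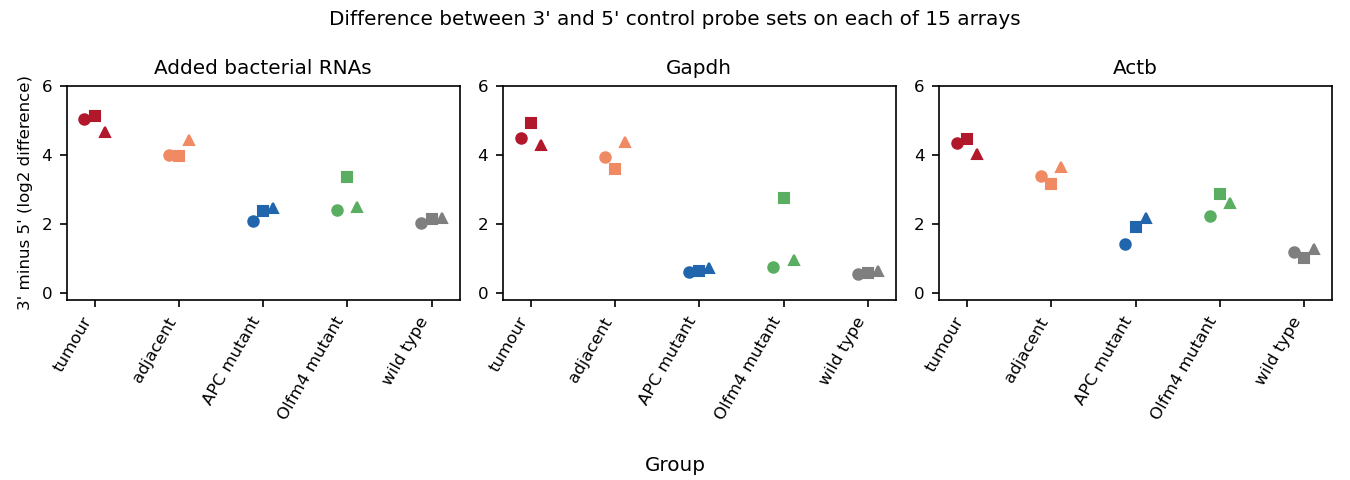
Difference between 3' and 5' probe sets (log2) of the added bacterial RNAs, Gapdh and Actb, with a point for each of 15 arrays by group. Tumour arrays lie between 4.67 and 5.12 for the added RNAs and APC mutant arrays between 2.10 and 2.45, and adjacent arrays lie near the tumour arrays.

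Marker genes of cell types were compared between the sides. Other parts of the gut share these cell types, so the markers could not check the label of colon. Of 9 epithelial markers 0 rose and 5 fell, with a median of -0.296, and their summed level spanned 16.4 to 16.5 in tumour and 16.8 to 16.9 in APC mutant. Smooth muscle markers (0 of 4 higher, 4 lower) summed to between 12.3 and 13.5 in tumour, against 15.2 to 15.5 in APC mutant. Neutrophil markers, all 4 higher, summed to between 12.4 and 14.8 in tumour and 7.89 to 8.77 in APC mutant, and mast cell markers, all 4 higher, to between 12.5 and 15 in tumour, against 9.16 to 9.40 in APC mutant. In bulk tissue, fewer cells of a type and less RNA per cell cannot be told apart. The single Olfm4 probe set read 3.13, 3.32 and 3.13 on the tumour arrays, against 3.14, 3.14 and 3.04 on the APC mutant arrays, near the bottom of the scale, in wild type colon too (3.01, 3.14 and 3.07). It therefore could not check the genotype. Of 4 Apc probe sets, the kept one rose by 0.58 and another by 0.39, while the other two fell by 2.15 and 0.45.

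The promoters of a few responding genes are shown because their motifs belong to the factors named for 3 of the gene groups below: TCF/LEF for Wnt targets, SRF for smooth muscle and CDX for absorptive cells. RefSeq entries of the assembly GRCm38.p6 cover 250 bases before to 50 after a gene's start. The TCF/LEF motif CTTTGAT, searched on both strands, stood in 3 of 14 Wnt target genes with an entry (21.4%), against 1160 of 27025 genes in all (4.29%). Its 3 holders were Sp5, Tnfrsf19 and Tiam1. The CDX motif TTTATNG stood in 8 of 17 absorptive genes (47.1%), among them Car4, Aqp8, Fabp2 and Cyp2c55, against 3385 of all genes (12.5%). In 4 of these 8, Car4 included, the match overlaps the letters TATAAA, the TATA box. The CArG box stood in 1 of 18 smooth muscle genes, Myl9 (5.56%), against 488 of all genes (1.81%). Each sequence runs 5' to 3' along the gene's strand, and capitals mark the motif match on either strand. Sp5 lies at chr2:70474673-70474972 (plus strand), Tnfrsf19 at chr14:61037938-61038237 (minus strand), Car4 at chr11:84957504-84957803 (plus strand), Aqp8 at chr7:123462044-123462343 (plus strand) and Myl9 at chr2:156775214-156775513 (plus strand).
Sp5: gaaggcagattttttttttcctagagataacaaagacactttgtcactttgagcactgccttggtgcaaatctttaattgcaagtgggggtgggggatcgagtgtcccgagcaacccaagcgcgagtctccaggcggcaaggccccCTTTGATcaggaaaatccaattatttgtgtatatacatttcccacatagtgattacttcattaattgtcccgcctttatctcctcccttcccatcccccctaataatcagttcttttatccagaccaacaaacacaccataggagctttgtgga
Tnfrsf19: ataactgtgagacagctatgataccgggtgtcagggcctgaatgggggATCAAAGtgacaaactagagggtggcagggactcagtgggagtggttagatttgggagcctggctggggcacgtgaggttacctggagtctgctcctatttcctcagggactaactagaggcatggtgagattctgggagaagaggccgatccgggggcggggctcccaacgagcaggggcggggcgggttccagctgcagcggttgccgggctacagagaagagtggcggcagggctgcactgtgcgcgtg
Car4: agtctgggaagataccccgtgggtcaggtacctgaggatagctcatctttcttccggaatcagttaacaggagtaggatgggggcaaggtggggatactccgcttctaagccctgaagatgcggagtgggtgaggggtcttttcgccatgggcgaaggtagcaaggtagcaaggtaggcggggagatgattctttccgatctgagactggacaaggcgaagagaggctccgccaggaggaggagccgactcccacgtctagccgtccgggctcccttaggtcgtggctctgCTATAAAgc
Aqp8: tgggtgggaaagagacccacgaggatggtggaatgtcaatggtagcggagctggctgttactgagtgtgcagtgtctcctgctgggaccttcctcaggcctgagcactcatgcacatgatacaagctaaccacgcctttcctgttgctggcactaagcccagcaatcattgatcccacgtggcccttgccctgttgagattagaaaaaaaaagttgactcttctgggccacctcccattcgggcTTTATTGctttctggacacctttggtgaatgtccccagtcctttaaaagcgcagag
Myl9: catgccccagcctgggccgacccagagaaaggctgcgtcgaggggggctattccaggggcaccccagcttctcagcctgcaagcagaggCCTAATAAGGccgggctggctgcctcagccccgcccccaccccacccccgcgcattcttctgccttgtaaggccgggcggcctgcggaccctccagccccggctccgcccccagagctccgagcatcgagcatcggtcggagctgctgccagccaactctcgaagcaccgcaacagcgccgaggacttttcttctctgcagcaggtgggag
These matches describe letters in a window and do not show binding.

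Among genes with the largest rises were secreted Wnt regulators, developmental transcription factors and inflammatory mediators, and among those with the largest falls were markers of absorptive epithelium, smooth muscle and enteric nerve. Otop1, a proton channel gene, had the largest rise, with 12.59, 12.38 and 12.59 on the tumour arrays, against 3.96, 4.50 and 3.81 on the APC mutant arrays, 345-fold higher, a log2 difference of 8.43 ± 0.76 (adjusted p = 2.81e-06). Cyp2c55, a cytochrome P450 of colonic epithelium, fell the most, with 6.74, 5.43 and 5.77 on the tumour arrays, against 12.27, 11.97 and 12.25 on the APC mutant arrays, a difference of -6.18 ± 0.35 (adjusted p = 7.25e-08) or 72.7-fold lower in tumour. The highest array of the lower group lay over 4 log2 units below the lowest array of the higher group for both genes. Slc30a2, a zinc transporter gene, rose by 7.07 ± 0.59 (adjusted p = 1.57e-06), and Tnfrsf11b, which encodes the decoy receptor osteoprotegerin, by 6.55 ± 0.69 (adjusted p = 8.8e-06). On the tumour arrays these reached 12.59, 12.66 and 12.90 for Slc30a2 and 10.89, 11.48 and 11.05 for Tnfrsf11b, against 5.61, 5.25 and 6.09 and 4.31, 4.21 and 5.26 on the APC mutant arrays. Cldn6, a claudin of embryonic epithelia, rose by 6.20, Cfi, which encodes complement factor I, by 6.36, and Lect2, a secreted leukocyte chemotaxin, by 6.20. Rises above 6 log2 units were also seen for Clstn2 (6.49), Erich3 (6.53), Psapl1 (6.28), the ceramide synthase gene Cers3 (6.24) and the germ cell gene Tex15 (6.23).

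**Figure D2:**
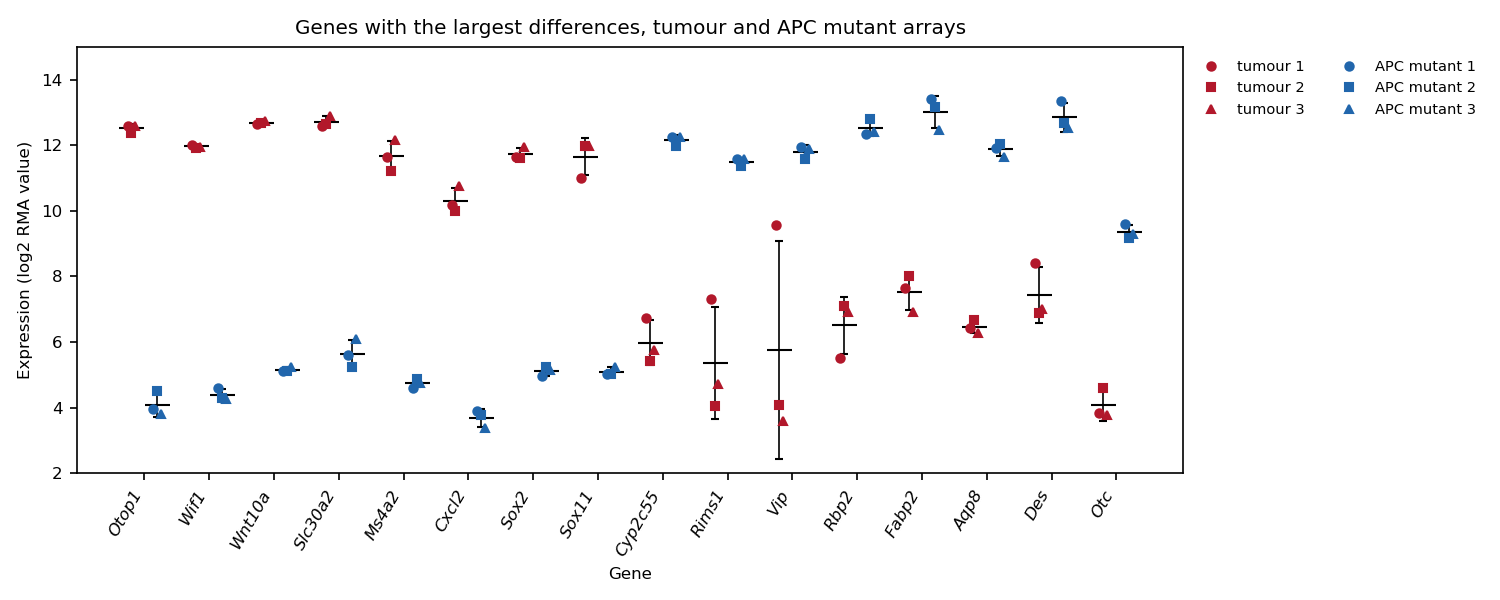
Log2 RMA values of 16 genes with the largest differences, 3 tumour arrays (red, left) and 3 APC mutant arrays (blue, right) for each, with mean and SD. The groups do not overlap for any of them, and the Vip and Rims1 values of tumour array 1 stand above those of the other 2 tumour arrays.

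Wnt target genes rose together, and several that were near the lower end of the scale in APC mutant colon became highly expressed in tumour. Of 22 measured, 18 were higher and 1 lower (81.8% and 4.55%, against 27.9% and 19.5% of all genes), with a median difference of 2.21. Notum, a secreted enzyme that removes the lipid from Wnt proteins, gave 11.12, 11.06 and 11.57 on the tumour arrays, against 5.66, 5.40 and 5.51 on the APC mutant arrays, a rise of 5.73 ± 0.45 (adjusted p = 1.07e-06) or 53.1-fold. Sp5, a transcription factor induced by beta-catenin whose promoter is printed above, gave 10.68, 11.15 and 11.53 on the tumour arrays, against 5.83, 5.94 and 5.91 on the APC mutant arrays, a rise of 5.23 ± 0.38 (adjusted p = 5.83e-07). The spread within each side was below 1 log2 unit for both, so the arrays of the groups lie far apart.

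Feedback inhibitors of the pathway belong to the same group. Nkd1, an antagonist of Dishevelled, rose by 4.48 ± 0.46 (adjusted p = 7e-06) with 4 probe sets called higher, and the membrane-bound inhibitor Apcdd1 by 4.88 ± 0.47 (adjusted p = 4.13e-06) with 5. The scaffold gene Axin2, the classical target, gave 12.48, 12.43 and 12.76 on the tumour arrays, against 11.15, 11.02 and 11.26 on the APC mutant arrays, a rise of 1.41 ± 0.17 (adjusted p = 3.06e-05) or 2.66-fold. Prox1, a homeobox factor, rose by 4.75 ± 0.48 (adjusted p = 6.08e-06), and Lef1, the nuclear partner of beta-catenin, by 3.85 ± 0.31 (adjusted p = 1.23e-06). The receptor gene Tnfrsf19 rose by 2.79 and the BMP pseudoreceptor gene Bambi, which is listed with the BMP genes, by 2.95. Ephb3, a receptor that helps position cells in the crypt, rose by 1.98 and the angiogenic factor gene Vegfa by 1.40. The only member lower was Nkd2, the relative of Nkd1, at -1.24 ± 0.41 (adjusted p = 0.0243), a call that was lost with an adjusted p from 0.0548 to 0.0663 without any 1 of tumour arrays 1 and 3 and APC mutant arrays 1 and 2. Sox9, a crypt transcription factor, gave 10.53, 10.60 and 10.28 on the tumour arrays, against 10.80, 10.97 and 11.06 on the APC mutant arrays, a difference of -0.48 ± 0.25 (adjusted p = 0.129). Its arrays did not overlap, but the fit over all groups did not call it, while the fit to the 6 arrays alone did (adjusted p = 0.0297), and the mean of its probe sets gave 0.19 without passing. The other Sox9 probe sets pointed up, with 0.51, which passed, and 0.55, which did not.

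The secreted and receptor parts of the Wnt pathway moved less uniformly. Of 18 Wnt ligand genes 8 were higher and 0 lower, with a median of 0.627. Wnt10a stood out with 12.66, 12.67 and 12.75 on the tumour arrays, against 5.11, 5.12 and 5.24 on the APC mutant arrays, a rise of 7.54 ± 0.44 (adjusted p = 9.22e-08) or 186-fold. Wnt6 rose by 3.22 ± 0.24 (adjusted p = 7.33e-07). Wnt5a, a ligand of non-canonical signalling, gave a difference of 0.64 ± 0.27 (adjusted p = 0.0629), which passed with the mean of all or the most variable probe set, with the 6 arrays alone and without APC mutant array 2 (adjusted p = 0.0341), but in no other setting tried. Among 12 secreted antagonists 5 rose and 2 fell (3 rose without tumour array 2). Wif1, which binds Wnt proteins outside the cell, gave 12.02, 11.91 and 11.96 on the tumour arrays, against 4.60, 4.28 and 4.26 on the APC mutant arrays, the second largest rise of all genes named by the rule at 7.59 ± 0.73 (adjusted p = 4.24e-06) or 192-fold. Dkk2 rose by 3.68 ± 0.35 (adjusted p = 4.19e-06) and Dkk3 by 1.55 ± 0.27 (adjusted p = 0.000419), whereas Sfrp1, a soluble Frizzled-like protein, fell by 1.57 with 4 probe sets lower.

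R-spondins amplify Wnt signals through Lgr receptors. Lgr6 rose by 6.08 ± 0.47 (adjusted p = 8.66e-07), with 11.57, 12.22 and 11.61 on the tumour arrays, against 5.78, 5.59 and 5.78 on the APC mutant arrays, and Lgr5 by 2.73 ± 0.23 (adjusted p = 1.6e-06). The groups overlapped for Lgr4, which gave 12.29, 12.55 and 12.42 on the tumour arrays, against 12.28, 12.58 and 12.92 on the APC mutant arrays. Rspo3, a stromal R-spondin, fell to 6.92, 5.59 and 5.37 in tumour, against 8.82, 8.76 and 8.74 in APC mutant, a difference of -2.81 ± 0.44 (adjusted p = 0.000195). Of 12 Frizzled and Lrp receptor genes 4 rose and 3 fell (1 fell without tumour array 2 or without APC mutant array 2). Fzd10 rose by 2.06 ± 0.38 (adjusted p = 0.000632) and Fzd5 fell by 1.78. Among 13 genes of the destruction complex and the TCF factors 6 rose and 4 fell, but 3 rose without tumour array 3 or without APC mutant array 1, and 2 rose with the mean of all probe sets. Tcf7l2, the main TCF factor of intestinal epithelium, fell by 1.19 with 4 probe sets lower. Ctnnb1, which encodes beta-catenin itself, differed by 0.24 with an adjusted p of 0.0365, and that call was lost, with an adjusted p from 0.0672 to 0.111, without any 1 of 5 arrays. Its probe sets disagree, 1 called higher and 2 lower, and it turned lower with other probe set choices (-0.70 with their mean and -1.86 with the most variable one).

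Crypt stem cell genes rose in part. Of 14 in the list 8 were higher and 3 lower (57.1% and 21.4%), with a median of 0.912. Ascl2, a transcription factor that maintains crypt base columnar cells, gave 11.03, 11.37 and 10.81 on the tumour arrays, against 8.58, 7.27 and 8.71 on the APC mutant arrays, a rise of 2.88 ± 0.69 (adjusted p = 0.00392). Its APC mutant array 2 lay below the other two, and the groups did not overlap. Smoc2, a matricellular protein gene of the stem cell signature, rose by 3.17 ± 0.25 (adjusted p = 1.12e-06), the RNA-binding protein genes Msi1 and Mex3a by 3.50 and 3.62, and Bmi1, a Polycomb subunit gene, by 1.42. Tert, the catalytic subunit of telomerase, gave 7.65, 7.80 and 7.62 on the tumour arrays, against 4.27, 4.21 and 4.31 on the APC mutant arrays, a rise of 3.42 ± 0.13 (adjusted p = 7.81e-09). Lgr5, the receptor that marks these cells and stands in the Wnt lists, gave 8.41, 8.53 and 8.42 on the tumour arrays, against 5.90, 5.35 and 5.93 on the APC mutant arrays, 6.62-fold higher. Another Tert probe set gave 0.32, and other Msi1 probe sets gave 0.14 and 0.35, none of them passing. The 3 lower members were the water channel gene Aqp4 (-1.84), Clca4a (-1.38) and Rgmb (-0.73, adjusted p = 0.044), a BMP co-receptor gene whose call was lost without any 1 of 5 arrays (adjusted p from 0.0571 to 0.117) and whose difference was -2.96 with the most variable probe set.

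Single transcription factor genes of other developmental programmes rose. Of 19 Sox genes 7 rose and 2 fell (36.8% and 10.5%, against 27.9% and 19.5% of all genes), so single members stood out more than the list. Sox2, a factor of foregut and neural progenitors, gave 11.64, 11.62 and 11.94 on the tumour arrays, against 4.97, 5.24 and 5.14 on the APC mutant arrays, a rise of 6.62 ± 0.79 (adjusted p = 2.44e-05). Sox11, of embryonic neural tissue, rose by 6.56 ± 0.78 (adjusted p = 2.22e-05) with 6 probe sets higher. Sox21 rose by 3.38, and Sox17, of definitive endoderm and arterial endothelium, by 4.07. Sox10, the factor of enteric glia, fell by 2.06. Onecut2, known from liver and pancreas development, gave 10.18, 9.60 and 9.79 on the tumour arrays, against 3.40, 3.75 and 3.63 on the APC mutant arrays, a rise of 6.26 ± 0.47 (adjusted p = 7.35e-07) with 3 probe sets higher. Tumour and APC mutant arrays did not overlap for any Sox gene just named. Among epithelial-mesenchymal transition genes 7 of 13 rose and 0 fell (53.8% against 27.9% of all genes), led by the forkhead gene Foxc2 at 3.82 ± 0.25 (adjusted p = 2.43e-07).

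**Figure D3:**
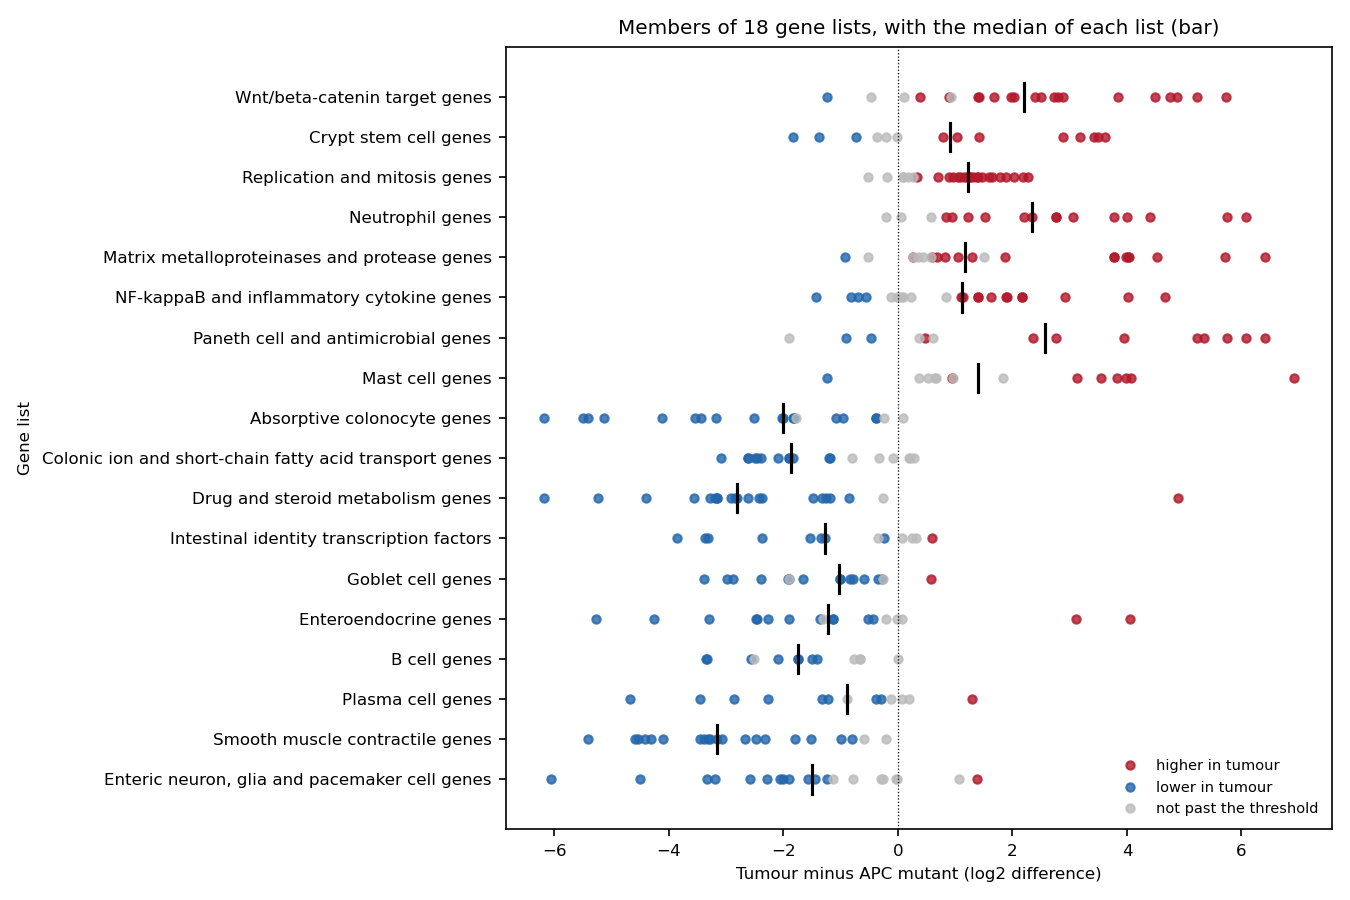
Log2 difference of tumour minus APC mutant for each measured member of 18 gene lists, red where higher, blue where lower and grey where the test was not passed, with the list median as a bar. Medians run from 2.57 for Paneth cell and antimicrobial genes to -3.15 for smooth muscle genes.

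DNA replication and mitosis genes were higher as a group. Of 28 measured 22 rose and 0 fell (78.6%, against 27.9% of all genes), with a median of 1.22. The replication licensing genes Mcm2 and Mcm5 rose by 2.03 ± 0.20 (adjusted p = 4.89e-06) and 1.78 ± 0.23 (adjusted p = 4.03e-05), with Mcm2 at 11.18, 11.41 and 11.41 on the tumour arrays, against 8.90, 9.63 and 9.38 on the APC mutant arrays. Cdc6, which loads the Mcm complex, rose by 2.27 ± 0.23 (adjusted p = 6.48e-06), and Ccne1, the cyclin of S phase entry, by 1.89 ± 0.22 (adjusted p = 2.25e-05). Mitotic kinases followed, with Bub1 of the spindle checkpoint at 2.18 and Aurkb at 1.58, although the most variable Bub1 probe set gave 0.92 and did not pass (adjusted p = 0.109). Mki67, the proliferation marker, was high on both sides, with 12.32, 11.78 and 11.45 on the tumour arrays, against 11.81, 11.51 and 11.99 on the APC mutant arrays, and its difference of 0.08 ± 0.25 (adjusted p = 0.801) did not pass. Pcna, the sliding clamp, gave 0.33 with an adjusted p of 0.038, which was lost without any of tumour arrays 2 and 3 or APC mutant arrays 1 and 3 (0.0855 to 0.133). Ribosome biogenesis genes moved little: 3 of 14 rose and 0 fell (6 rose without APC mutant array 2). Bop1 rose by 0.92, while Odc1, of polyamine synthesis, gave 0.16 (adjusted p = 0.456).

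Absorptive colonocyte genes fell almost without exception. Of 20 measured 17 were lower and 0 higher (85% against 19.5% of all genes), with a median of -2.01. Car4, a membrane carbonic anhydrase whose promoter is printed above, gave 10.39, 10.52 and 10.06 on the tumour arrays, against 13.71, 13.75 and 13.84 on the APC mutant arrays, a difference of -3.44 with a standard error of 0.11 (adjusted p = 4.32e-09). Aqp8, a water channel of surface colonocytes, gave 6.43, 6.66 and 6.27 on the tumour arrays, against 11.92, 12.04 and 11.66 on the APC mutant arrays, 42.7-fold lower. Slc26a3, the chloride and bicarbonate exchanger, gave 10.43, 9.10 and 8.69 on the tumour arrays, against 13.31, 13.59 and 13.66 on the APC mutant arrays, a difference of -4.12 ± 0.32 (adjusted p = 8.58e-07). Within each group these 3 genes varied by less than 2 log2 units, and the groups stood further apart than that. Car1, another carbonic anhydrase, fell by 2, the sulphate transporter gene Slc26a2 by 2.50 and the adhesion molecule gene Ceacam20 by 3.17. Among markers of epithelium in general, the keratin gene Krt8 differed by -0.01 and did not pass, the adhesion molecule gene Epcam fell by 0.22, the actin-bundling villin gene Vil1 by 0.38 and the keratin gene Krt19 by 0.83. Krt20, a keratin of differentiated surface cells, fell by 1.08 ± 0.14 (adjusted p = 5.28e-05).

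Transport of ions and short-chain fatty acids followed. Of 18 such genes 12 fell and 0 rose (66.7%), with a median of -1.87. Slc5a8, the sodium-coupled butyrate transporter, gave 10.68, 10.99 and 9.99 on the tumour arrays, against 13.15, 12.98 and 13.39 on the APC mutant arrays, a difference of -2.62. Slc4a4, a sodium bicarbonate cotransporter gene, fell by 2.49, although 1 of its probe sets was called higher beside 4 lower. Atp12a, the colonic proton pump, fell by 2.61, and Nr3c2, the mineralocorticoid receptor through which aldosterone acts, was lower with a difference of -3.09 ± 0.15 (adjusted p = 2.85e-08). Scnn1b, a subunit of the aldosterone-regulated sodium channel, did not pass, with 8.45, 7.89 and 8.52 on the tumour arrays, against 7.40, 8.66 and 8.20 on the APC mutant arrays.

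Drug and steroid metabolism shared with smooth muscle the largest proportion of lower members among the 52 lists: 19 of 21 fell and 1 rose (90.5% lower), with a median of -2.81. Sult1a1, a sulphotransferase gene, gave 9.30, 7.60 and 7.91 on the tumour arrays, against 13.56, 13.16 and 13.46 on the APC mutant arrays, 34.8-fold lower. Cyp4f14 fell by 4.40, Cyp3a13 by 3.15, the carboxylesterase gene Ces2a by 3.19, the glutathione transferase gene Mgst3 by 4.77, the deacetylase gene Aadac by 5.23 and the steroid dehydrogenase gene Hsd3b3 by 4.87. The exception was Cyp2b10, a target of the xenobiotic receptor CAR in liver, which gave 10.20, 9.31 and 9.07 on the tumour arrays, against 4.44, 4.55 and 4.87 on the APC mutant arrays, a rise of 4.90 ± 0.31 (adjusted p = 2.17e-07) with 3 probe sets higher. Its groups were separated by more than 4 log2 units in the opposite direction to the rest of the list. Sult1a1, Mgst3 and Hsd3b3 were named for the size of their falls and are not members of this list.

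Lipid handling and oxidation changed less evenly. Of 14 lipid absorption genes 6 fell and 2 rose. Rbp2, which binds retinol in enterocytes, gave 5.52, 7.11 and 6.92 on the tumour arrays, against 12.35, 12.79 and 12.41 on the APC mutant arrays, 64.1-fold lower, and Fabp2, the intestinal fatty acid binding protein gene, fell by 5.49 ± 0.48 (adjusted p = 2.24e-06). Apob, the structural protein of chylomicrons, fell by 3.47, whereas Mttp, the protein that loads lipid onto it, rose by 1.07 ± 0.31 (adjusted p = 0.0116). Of 14 fatty acid oxidation and ketogenesis genes 7 fell and 1 rose, but 4 fell without tumour array 1 or without APC mutant array 1. Bdh1, which interconverts ketone bodies, fell by 2.10 ± 0.19 (adjusted p = 3.14e-06). Hadha, of mitochondrial beta-oxidation, fell by 1.84, of which -1.31 lay between adjacent and APC mutant arrays and -0.52 between tumour and adjacent arrays. Otc, the urea cycle enzyme ornithine transcarbamylase, which is made in gut epithelium as well as liver, fell by 5.29 ± 0.33 (adjusted p = 1.62e-07).

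Transcription factors that specify intestinal epithelium fell with these genes. Of 13 measured 8 were lower and 1 higher (61.5%), with a median of -1.27. Cdx2, the homeobox factor of intestinal identity, gave 10.37, 9.80 and 9.57 on the tumour arrays, against 13.37, 13.39 and 12.94 on the APC mutant arrays, and Cdx1, its relative, 8.60, 8.61 and 8.45 on the tumour arrays, against 12.27, 11.81 and 11.66 on the APC mutant arrays. These are differences of -3.32 ± 0.29 (adjusted p = 2.42e-06) for Cdx2 and -3.36 ± 0.17 (adjusted p = 4.47e-08) for Cdx1, so that levels of both remained well above the floor of the scale in tumour. Nr5a2, a nuclear receptor of crypt cells, fell by 3.85 ± 0.36 (adjusted p = 3.86e-06) with 4 probe sets lower, and Klf4, a factor of post-mitotic epithelium, was lower with a difference of -2.36 ± 0.15 (adjusted p = 1.69e-07). Hnf4a, the nuclear receptor of digestive epithelium, differed by -0.25 ± 0.091 (adjusted p = 0.0379), a call lost without any 1 of 5 arrays (adjusted p from 0.0616 to 0.122), although its difference was -1.39 with the mean of its probe sets and -2.33 with the most variable one. Foxa2, a forkhead factor of endoderm, rose by 0.60 ± 0.18 (adjusted p = 0.0152), a call that was lost without tumour array 3 (adjusted p = 0.0588) or without APC mutant array 3 (adjusted p = 0.0598).

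Secretory lineages fell, with named exceptions. Of 17 goblet cell genes 14 were lower and 1 higher (82.4%), with a median of -1.02. Atoh1, the factor that commits cells to the secretory lineage, gave 8.23, 8.61 and 7.73 on the tumour arrays, against 10.69, 10.74 and 10.31 on the APC mutant arrays, a difference of -2.39. Spdef, the goblet cell maturation factor, fell by 3.39 ± 0.42 (adjusted p = 3.5e-05). Muc2, the gel-forming mucin, gave 11.83, 10.09 and 9.26 on the tumour arrays, against 13.36, 13.11 and 13.36 on the APC mutant arrays, and the secreted protein gene Clca1 13.41, 11.64 and 11 on the tumour arrays, against 13.91, 13.85 and 13.99 on the APC mutant arrays. For both mucus genes tumour array 1 lay at least 1.5 log2 units above the other 2 tumour arrays. Tff3, the trefoil peptide gene, fell by 1.01, with 13.60, 12.81 and 12.81 on the tumour arrays, against 14.06, 14.12 and 14.05 on the APC mutant arrays. The only member higher was Tff1, the gastric trefoil peptide gene, at 0.58 ± 0.23 (adjusted p = 0.0494), a call lost without any 1 of the 6 arrays (adjusted p from 0.0779 to 0.114).

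Of 18 enteroendocrine genes 12 fell and 2 rose (66.7% lower), with a median of -1.22. Insl5, a hormone of colonic L cells, gave 7.81, 7.05 and 6.89 on the tumour arrays, against 12.94, 12.68 and 11.98 on the APC mutant arrays, 38.8-fold lower. Gcg, the glucagon gene, fell by 4.26 ± 0.26 (adjusted p = 1.5e-07), Sst, somatostatin, by 2.47, the granule protein gene Chga by 2.27, peptide YY (Pyy) by 1.36 and the factor Neurod1 by 1.91. Nts, the neurotensin gene, went the other way, with 10.81, 9.89 and 10.10 on the tumour arrays, against 6.86, 6.21 and 5.56 on the APC mutant arrays, a rise of 4.06 ± 0.81 (adjusted p = 0.00117), and so did Isl1, a homeobox factor of endocrine cells and neurons, by 3.12 ± 0.33 (adjusted p = 8.69e-06). Of 11 tuft cell genes 4 fell and 1 rose (2 fell without APC mutant array 1), the riser being Avil, the actin-bundling protein advillin, by 4.48 ± 0.41 (adjusted p = 2.92e-06). The 4 lower ones (36.4%, against 19.5% of all genes) were Rgs13 (-2.66), Dclk1 (-2.21), Trpm5 (-1.33) and Il25 (-0.85).

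Paneth cell and antimicrobial genes rose: 9 of 14 were higher and 2 lower (64.3%), with a median of 2.57. Mmp7, the protease that activates defensins in the small intestine, gave 12.90, 13.39 and 13.27 on the tumour arrays, against 7.68, 6.62 and 6.05 on the APC mutant arrays, 84.5-fold higher. The antimicrobial lectin genes Reg3b and Reg3g rose by 5.35 ± 1.12 (adjusted p = 0.00165) and 5.21 ± 1.19 (adjusted p = 0.00292), and the iron-sequestering proteins Lcn2 and Ltf by 3.95 ± 0.71 (adjusted p = 0.000545) and 4.01 ± 0.44 (adjusted p = 1.32e-05). S100a8 and S100a9, which this list shares with the neutrophil list, form calprotectin, and neutrophil markers were higher as given above. Ltf is counted in the neutrophil list only. Lyz1, the Paneth cell lysozyme, was at the top of the scale on both sides and rose by only 0.47. Ang4, an antimicrobial ribonuclease, gave 12.21, 12.46 and 11.76 on the tumour arrays, against 14.21, 14 and 13.90 on the APC mutant arrays and did not pass in the fit over all arrays (adjusted p = 0.391), but passed with the 6 arrays alone (adjusted p = 0.000449).

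Other signalling pathways showed changes in single ligands more than in whole lists. Of 26 BMP and TGF-beta genes 11 rose and 4 fell (42.3% and 15.4%), and 7 rose with the mean of all probe sets. The ligand genes Bmp7, Inhba and Inhbb rose by 4.08 ± 0.36 (adjusted p = 2.16e-06), 3.21 ± 0.35 (adjusted p = 1.07e-05) and 3.95 ± 0.40 (adjusted p = 6.78e-06), while Bmp2, of surface epithelium, fell by 0.64 (a difference of -0.41 without APC mutant array 3) and the BMP response gene Id1 by 3.28. Of the same list, Id2 and Id3 rose by 1.03 and 0.81. Id1 changed sign with the 3' to 5' difference of the added bacterial RNAs as a covariate. Other probe sets gave 0.05 for Inhba and 0.39 for Inhbb, neither passing. For Bmp7 they gave 2.53, which passed, and -0.50, which did not. Among Hedgehog genes 4 of 12 rose and 4 fell. Shh gave 12.15, 11.90 and 11.97 on the tumour arrays, against 6.95, 7.16 and 5.74 on the APC mutant arrays, a rise of 5.39 ± 0.70 (adjusted p = 4.82e-05) or 41.9-fold, whereas Ihh, the ligand of differentiated colonocytes, fell by 2.07 and Hhip, a Hedgehog-binding target gene of the stroma, by 2.09. Shh was above 11 on every tumour array and below 8 on every APC mutant array. Another Shh probe set gave -0.30 and did not pass.

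Prostaglandin enzymes moved in both directions. Of 15 genes 3 rose and 5 fell. Ptgs2, the inducible cyclooxygenase of intestinal tumours, gave 11.12, 11.13 and 11.32 on the tumour arrays, against 8.29, 9.11 and 9.29 on the APC mutant arrays, a rise of 2.30 ± 0.57 (adjusted p = 0.00483), and the prostaglandin D synthase gene Ptgds rose by 4.92 ± 0.75 (adjusted p = 0.000158). Hpgd, which degrades prostaglandins, fell by 2.37 ± 0.18 (adjusted p = 7.41e-07), and its uptake carrier gene Slco2a1 by 1.98 with 4 probe sets lower. The receptor gene Ptger3 gave 4.77, 4.97 and 4.19 on the tumour arrays, against 8.70, 8.22 and 9.06 on the APC mutant arrays, a difference of -4.02. Another Ptger3 probe set gave -0.47 and did not pass. Among 19 Notch genes 6 rose and 5 fell. The ligand gene Dll1 fell by 0.67. The target gene Hey1 rose by 1.20, while Nrarp (-2.07), Hey2 (-1.43), Dtx1 (-1.19) and Atoh1 (-2.39) of the same list fell. The receptor gene Notch1 gave 0.19 (adjusted p = 0.583), but 0.78 with the mean of its probe sets (adjusted p = 0.00359) and 1.37 with the most variable one (adjusted p = 2.37e-05). Of 13 EGF family genes 2 rose (1 without tumour array 1) and 4 fell. Egf fell by 1.44 and Lrig3, of a family of ErbB regulators, by 2.48. The ligand genes Ereg and Nrg1 were uneven in APC mutant colon (8.47, 11.03 and 9.76 for Ereg), and Ereg did not pass (adjusted p = 0.0624, 0.0245 without APC mutant array 2), and Nrg1 passed only narrowly (adjusted p = 0.0471) and was lost without any 1 of 5 arrays (0.0782 to 0.196).

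Neutrophil-attracting chemokines were among the genes with the largest rises. Cxcl2 gave 10.18, 9.99 and 10.76 on the tumour arrays, against 3.88, 3.77 and 3.37 on the APC mutant arrays, 99.7-fold higher, a difference of 6.64 ± 0.69 (adjusted p = 8.32e-06). Cxcl5 gave 9.96, 11.40 and 11.44 on the tumour arrays, against 4.62, 5.23 and 4.73 on the APC mutant arrays, a rise of 6.07 ± 0.70 (adjusted p = 1.71e-05), with its lowest tumour value on tumour array 1. Cxcl3 rose by 5.69 ± 0.69 (adjusted p = 2.63e-05) and Cxcl1 by 4.34 ± 0.62 (adjusted p = 9.31e-05) with 3 probe sets higher. These 4 ligands share the receptor Cxcr2. Over all 24 chemokine genes 9 rose and 9 fell (37.5% each), and ligands of other receptors were among the lower ones. Cxcl12, made by stromal cells and bound by Cxcr4, gave 9.58, 9.28 and 9.65 on the tumour arrays, against 11.85, 11.81 and 12 on the APC mutant arrays, a difference of -2.38, and Ccl28, which draws IgA-producing plasma cells to mucosa, fell by 2.18 ± 0.17 (adjusted p = 8.58e-07) with 3 probe sets lower. The other Cxcl12 probe sets gave -0.14 and 0.19 and did not pass.

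Inflammatory cytokine genes and components of NF-kappaB signalling were listed together, and 12 of 22 were higher and 4 lower (54.5% and 18.2%), with a median of 1.12, and 8 were lower with the most variable probe set. Il23a, the specific subunit of interleukin-23, gave 9.40, 9.27 and 9.62 on the tumour arrays, against 4.92, 4.62 and 4.76 on the APC mutant arrays, a rise of 4.66 ± 0.26 (adjusted p = 7.25e-08). Il1b, a product of activated myeloid cells, gave 10.66, 11.45 and 11.99 on the tumour arrays, against 6.79, 8 and 7.24 on the APC mutant arrays, a rise of 4.02 ± 0.88 (adjusted p = 0.00228). Il11 rose by 2.92 ± 0.32 (adjusted p = 1.34e-05), Il6, its relative in receptor use, by 2.17, and Tnf by 1.88 with 7.76, 7.77 and 7.85 in tumour against 5.97, 5.88 and 5.87 in APC mutant. Il33, an alarmin counted with the fetal and regenerative genes, rose by 3.45 ± 0.45 (adjusted p = 4.5e-05). NF-kappaB subunit genes went both ways: Rela gave -0.70 and Relb -1.43, both lower, while Nfkb2 rose by 1.11. The other lower members were the cytokine gene Il18 and the receptor gene Nod1. Interferon response genes did not move as a list, with 1 of 17 higher and 0 lower. That gene was Usp18, at 2.79 ± 0.99 (adjusted p = 0.0343), and it was lost without any 1 of 5 arrays (adjusted p from 0.0509 to 0.117), whereas 5 of 17 rose without tumour array 1. Ifit1, a classical member, gave 9.61, 10.33 and 10.33 on the tumour arrays, against 9.69, 10.04 and 10.44 on the APC mutant arrays.

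Matrix proteases rose as a list. Of 22 genes 15 were higher and 1 lower (68.2% and 4.55%), with a median of 1.17, and without single arrays 10 to 14 were higher. Mmp10, stromelysin 2, gave 13.04, 13.20 and 13.28 on the tumour arrays, against 7.83, 7.99 and 6.55 on the APC mutant arrays, a rise of 5.71 ± 0.82 (adjusted p = 0.000102) or 52.5-fold. Mmp12, the macrophage elastase, rose by 4.53 ± 0.58 (adjusted p = 4.07e-05), and Mmp9, a gelatinase carried by neutrophils, by 3.78 ± 0.63 (adjusted p = 0.000321). Plat, tissue plasminogen activator, gave 10.64, 11.11 and 11.56 on the tumour arrays, against 6.96, 7.35 and 6.93 on the APC mutant arrays, a rise of 4.02, and Cemip, a hyaluronan-degrading protein reported as a Wnt target in colorectal tumours, rose by 3.98 ± 0.40 (adjusted p = 6.6e-06). Every tumour array lay above every APC mutant array for these genes. Mmp3, stromelysin 1, rose by 1.88 ± 0.53 (adjusted p = 0.0112), a call lost without tumour array 3 (adjusted p = 0.0532) or APC mutant array 3 (0.0519).

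Neutrophil genes rose: 14 of 17 were higher and 0 lower (82.4%, against 27.9% of all genes), with a median of 2.34. S100a8, which forms calprotectin with S100a9, gave 11.50, 13.66 and 13.77 on the tumour arrays, against 6.65, 7.33 and 6.70 on the APC mutant arrays, a rise of 6.08 ± 0.92 (adjusted p = 0.000157), and S100a9 one of 5.75 ± 0.96 (adjusted p = 0.000335). Cxcr2, the receptor for the chemokines above, gave 4.14, 6.83 and 6.22 on the tumour arrays, against 3.38, 3.36 and 3.44 on the APC mutant arrays, and the granulocyte colony-stimulating factor receptor gene Csf3r 5.52, 6.11 and 7.18 on the tumour arrays, against 4.62, 4.85 and 4.78 on the APC mutant arrays. In all 4 genes tumour array 1 was the lowest tumour array, and still above the APC mutant arrays. Without it 15 were higher.

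Mast cell genes also rose, 7 of 14 with 1 lower (against 27.9% of all genes), but their granule proteases were uneven among the tumours. Ms4a2, the beta chain of the high-affinity IgE receptor, gave 11.64, 11.22 and 12.15 on the tumour arrays, against 4.61, 4.86 and 4.76 on the APC mutant arrays, a rise of 6.92 ± 0.63 (adjusted p = 2.79e-06) with similar values on the 3 tumour arrays. Hdc, which makes histamine, rose by 4.08 ± 0.44 (adjusted p = 9.93e-06). Mcpt1, the mucosal mast cell chymase, gave 13.16, 9.87 and 9.42 on the tumour arrays, against 8.03, 7.32 and 7.69 on the APC mutant arrays, and the carboxypeptidase gene Cpa3 gave 12.15, 7.90 and 7.50 on the tumour arrays, against 5.09, 5.25 and 5.24 on the APC mutant arrays. Tumour array 1 was over 3 log2 units higher than the other 2 tumour arrays for both genes, and their adjusted p-values were 0.00917 for a rise of 3.14 in Mcpt1 and 0.00366 for a rise of 3.99 in Cpa3. Without tumour array 1 the rises were 1.96 for Mcpt1 (adjusted p = 0.0277) and 2.51 for Cpa3 (adjusted p = 0.00202), and again 7 of the list were higher. Kit, the stem cell factor receptor of mast and pacemaker cells, fell by 1.24 ± 0.34 (adjusted p = 0.00966), a call lost with the arrays of an animal averaged (-1.04, adjusted p = 0.0553).

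Lymphoid genes fell for B cells and plasma cells, while T and NK cell genes went both ways. Of 13 B cell genes 8 were lower and 0 higher (61.5% against 19.5% of all genes), and 5 were lower without tumour array 1 or without APC mutant array 3. Cd79b, part of the B cell receptor, gave 6.92, 7.22 and 7.46 on the tumour arrays, against 11.05, 9.74 and 10.88 on the APC mutant arrays, a difference of -3.36 ± 0.47 (adjusted p = 8.6e-05), and its partner gene Cd79a fell by 2.57. Ms4a1 (CD20) did not pass, with 4.24, 6.55 and 6.91 on the tumour arrays, against 8.53, 7.46 and 9.27 on the APC mutant arrays, but was called lower with the 6 arrays alone (adjusted p = 0.0331) and with the mean of its probe sets (-2.76, adjusted p = 0.0285). Of 13 plasma cell genes 8 were lower and 1, the factor gene Prdm1, higher at 1.29. Mzb1, which folds immunoglobulin, fell by 3.45 ± 0.27 (adjusted p = 9.86e-07), and the immunoglobulin gene Ighg3 gave 6.32, 6.17 and 6.48 on the tumour arrays, against 11.05, 10.58 and 11.37 on the APC mutant arrays, 25.6-fold lower. The other Ighg3 probe sets gave -0.11, -0.43 and -0.51, and none passed. Igha, another immunoglobulin gene, fell by 0.29. Jchain, which joins IgA dimers, differed by -0.39 ± 0.12 (adjusted p = 0.0192), a call lost without tumour array 3 or APC mutant array 3 (adjusted p = 0.0815 in each). Of 21 T and NK cell genes 8 rose and 3 fell, with a median of -0.117, and leaving out single arrays left 5 or 6 higher. Cd3e, the T cell receptor component, gave 8.46, 9.20 and 9.28 on the tumour arrays, against 8.75, 8.43 and 8.89 on the APC mutant arrays and overlapped. Gzmb, the cytotoxic granule protease, gave 8.42, 8.57 and 8.44 on the tumour arrays, against 5.61, 6.02 and 5.54 on the APC mutant arrays. This was a rise of 2.75 ± 0.54 (adjusted p = 0.00106), and it changed sign with the 3' to 5' difference of the added bacterial RNAs as a covariate. The 3 lower members were Cd2 (-1.42), Cd28 (-1.37) and Prf1, which encodes perforin (-1.29).

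Macrophage genes split by gene. Of 18, 7 rose and 3 fell (38.9% and 16.7%). Arg1, arginase of alternatively activated and suppressive myeloid cells, gave 9.40, 9.56 and 9.50 on the tumour arrays, against 5.76, 5.13 and 5.18 on the APC mutant arrays, a rise of 4.13 ± 0.62 (adjusted p = 0.000144). Cd163, the haemoglobin scavenger receptor of resident macrophages, gave 8.37, 5.93 and 6.28 on the tumour arrays, against 10.60, 10.68 and 11.22 on the APC mutant arrays, a difference of -3.97 ± 0.61 (adjusted p = 0.000181). The general markers moved little: Cd68 gave 0.02 (adjusted p = 0.957) and Csf1r rose by 0.68, or by 0.19 without passing when its probe sets were averaged. The Csf1r probe sets disagree, as the others gave 0.73 and -0.83 and both passed. C1qa, a chain of complement C1q, gave 6.89, 6.77 and 7.09 on the tumour arrays, against 11, 10.40 and 10.23 on the APC mutant arrays, a difference of -3.63, but C1qb rose by 0.36 and C1qc, at -0.13, did not pass, although the 3 chains form 1 protein. For C1qa the adjacent arrays (7.52, 7.38 and 7.07) lay close to the tumour arrays, and the Olfm4 mutant arrays (9.62, 7.27 and 9.45) below all wild type arrays (11.37, 11.16 and 10.50). Olfm4 mutant array 2, the lowest of its group, had a Gapdh 3' minus 5' difference of 2.76, against 0.753 and 0.971 on arrays 1 and 3. C1qa's tumour minus APC mutant difference changed sign with the 3' to 5' difference of the added bacterial RNAs as a covariate. The part of such differences in C1qa was not tested.

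Smooth muscle contractile genes formed the list with the lowest median of all 52. Of 21 members 19 were lower and 0 higher (90.5%), with a median of -3.15, and without tumour array 1 again 19 were lower. Des, the muscle intermediate filament desmin, gave 8.42, 6.88 and 7.01 on the tumour arrays, against 13.36, 12.68 and 12.52 on the APC mutant arrays, 42.7-fold lower. Myh11, the smooth muscle myosin, gave 10.11, 7.66 and 7.51 on the tumour arrays, against 12.99, 12.84 and 13.07 on the APC mutant arrays, a difference of -4.54 ± 0.55 (adjusted p = 2.75e-05), and Myl9, its light chain and the holder of the CArG box above, gave 10.01, 8.58 and 8.79 on the tumour arrays, against 13.90, 13.61 and 13.65 on the APC mutant arrays. Tagln (transgelin) fell by 4.42 and Cnn1 (calponin) by 3.45. Tumour array 1 was the highest tumour array for every gene just named and lay below all APC mutant arrays. Fxyd1, phospholemman, which regulates the sodium pump of muscle, is not in the list and fell by 4.73 ± 0.43 (adjusted p = 2.94e-06).

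Genes of enteric neurons, glia and pacemaker cells fell, and a few nerve-related genes were uneven among the tumours. Of 20 members 12 were lower and 1, Fabp7, a glial fatty acid binding protein, higher at 1.38. Vip, the neuropeptide of enteric motor neurons, gave 9.58, 4.07 and 3.60 on the tumour arrays, against 11.95, 11.60 and 11.88 on the APC mutant arrays, a difference of -6.06 ± 1.11 (adjusted p = 0.000648) with an SD of 3.33 among tumours, or -7.97 without tumour array 1 (adjusted p = 3.88e-08). Rims1, a scaffold of presynaptic active zones, gave 7.31, 4.06 and 4.70 on the tumour arrays, against 11.57, 11.36 and 11.58 on the APC mutant arrays, and the potassium channel gene Kcnd3 8.10, 4.14 and 5.41 on the tumour arrays, against 10.70, 10.58 and 10.56 on the APC mutant arrays. Neither is a member of the list. The other Kcnd3 probe sets gave 0.07, 0.30 and -0.03, and none passed. Tumour array 1 was higher than the other 2 tumour arrays by at least 2 log2 units for Vip, Rims1 and Kcnd3, but not for the list in general. Sox10 was lowest on tumour array 1, with 5.42, 5.92 and 5.59 on the tumour arrays. Stmn2, of growing axons, was also more even, with 6.63, 6.54 and 5.62 on the tumour arrays, against 11.23, 10.57 and 10.51 on the APC mutant arrays, and fell by 4.51 ± 0.49 (adjusted p = 1.07e-05). Grp, gastrin-releasing peptide, which is not in the list, fell by 4.93 ± 0.69 (adjusted p = 8.21e-05), and the glial genes Sox10 and S100b fell by 2.06 and 1.90.

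**Figure D4:**
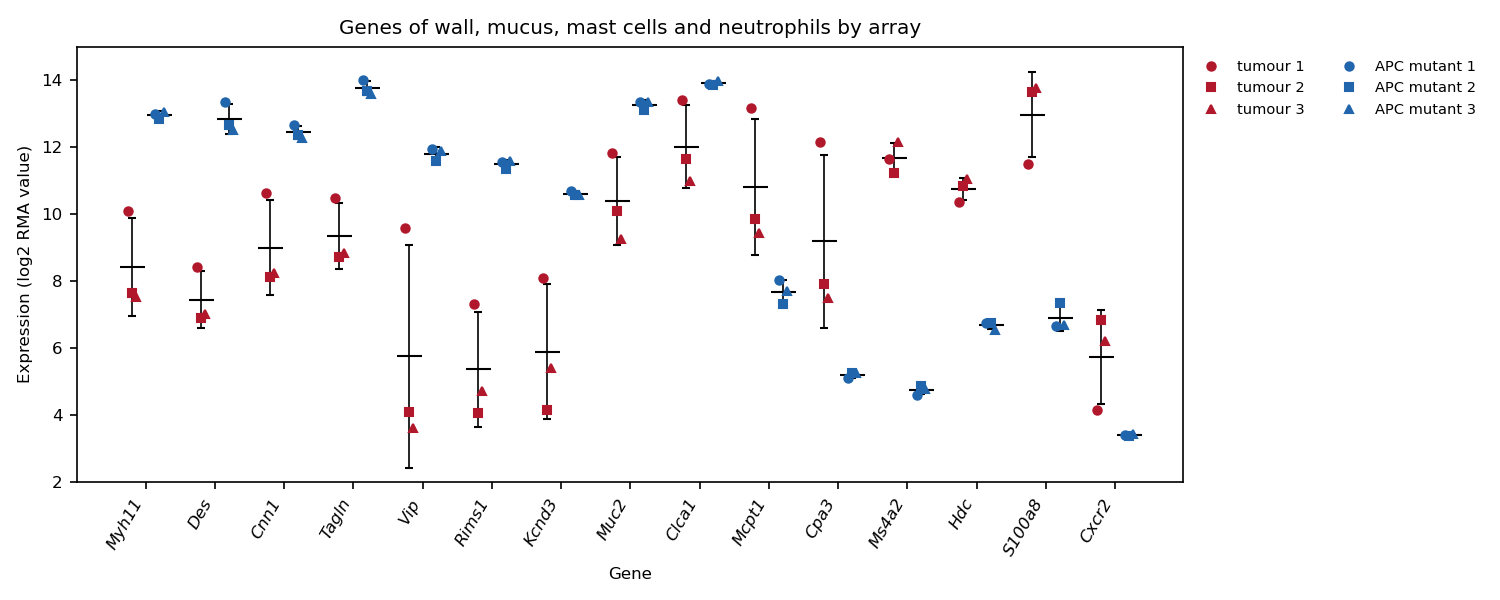
Log2 RMA values of 15 wall, mucus, mast cell and neutrophil genes on each tumour array (red, left) and APC mutant array (blue, right), with mean and SD and a symbol for each array number. The smooth muscle genes shown, Vip, Rims1, Kcnd3, Muc2, Clca1, Mcpt1 and Cpa3 are higher on tumour array 1 (Vip 9.58 against 4.07 and 3.60) and neutrophil genes lower (S100a8 11.50 against 13.66 and 13.77), while Ms4a2 and Hdc do not follow.

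Other stromal lists moved in both directions. Of 24 fibroblast and collagen genes 10 rose and 5 fell (8 and 8 without tumour array 1). Col1a1, the fibrillar collagen, rose by 0.58, while Fap, fibroblast activation protein, gave 6.29, 6.13 and 6.26 on the tumour arrays, against 8.29, 7.83 and 8.18 on the APC mutant arrays, a difference of -1.87 ± 0.19 (adjusted p = 6.31e-06), and periostin (Postn) fell by 1.44. Of 21 endothelial and angiogenic genes 7 rose and 5 fell. Angpt2, the ligand of remodelling vessels, gave 10.90, 10.26 and 10.57 on the tumour arrays, against 6.51, 6.55 and 6.56 on the APC mutant arrays, a rise of 4.04 ± 0.20 (adjusted p = 3.63e-08), and Esm1, an endothelial tip cell gene, rose by 2.85 ± 0.28 (adjusted p = 5.28e-06), while the receptor gene Kdr fell by 1.15. The adipocyte hormone gene Adipoq gave 3.75, 4.20 and 3.80 on the tumour arrays, against 9.55, 9.33 and 5.94 on the APC mutant arrays, uneven in APC mutant colon, and its call was lost without APC mutant array 1 (adjusted p = 0.0713) or array 2 (0.0642). Of 11 adipocyte genes 5 were lower, and 2 were without either of those arrays.

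A few of the genes with the largest falls belong to none of these lists. Rabac1, a Golgi acceptor of prenylated Rab proteins, gave 6.28, 5.55 and 6.11 on the tumour arrays, against 12.07, 10.88 and 10.68 on the APC mutant arrays, 37.5-fold lower. The antisense transcripts Abhd11os and Hoxb5os fell by 4.99 and 4.80, and Hoxb5, the gene beside the second, by 3.42 with 6.60, 6.31 and 5.24 on the tumour arrays, against 9.87, 9.26 and 9.29 on the APC mutant arrays. Pnliprp1, a pancreatic lipase-related protein gene, rose instead, with 13.85, 13.54 and 13.66 on the tumour arrays, against 7.53, 6.72 and 7.55 on the APC mutant arrays, a difference of 6.42 ± 0.68 (adjusted p = 9.1e-06). In its list of 16 exocrine pancreas and stomach genes 6 were higher and 2 lower. Its relative Pnliprp2 rose by 5.55 and the ribonuclease gene Rnase1 by 2.10, while the elastase gene Cela1 fell, with a difference of -2.24, and Cpa1, a pancreatic carboxypeptidase gene, at -0.70, did not pass.

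The remaining groups place these differences. Tumour minus adjacent tissue changed 5112 genes (28.1%) and adjacent minus APC mutant 3154 (17.3%). Tumour and adjacent arrays come from the same 2 animals (array 1 of each from one, arrays 2 and 3 of each from the other), and these counts treat all arrays as unpaired. Both contrasts share arrays with tumour minus APC mutant, so the values stand side by side and are not independent. Of the 22 Wnt targets 16 were higher in tumour than in adjacent tissue and 3 higher in adjacent tissue than in APC mutant colon (against 14.3% and 9.88% of all genes). Of the 28 replication genes these counts were 20 and 2. Of the 21 smooth muscle genes 19 were lower in tumour than in adjacent tissue and 2 lower in adjacent tissue than in APC mutant colon (against 13.8% and 7.45%), and of the 21 drug metabolism genes 19 and 2. Single genes show the same: Car4 differed by -3.37 between tumour and adjacent and by -0.08 between adjacent and APC mutant, and Lgr5 by 2.83 and -0.10. Axin2 was lower in adjacent tissue than in APC mutant colon (-0.56, adjusted p = 0.0446) and higher in tumour than in adjacent tissue (1.97).

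Other genes were split more evenly or the other way. Aqp8 differed by -3.71 between tumour and adjacent and by -1.71 (adjusted p = 0.0012) between adjacent and APC mutant. For Rabac1 nearly the whole difference lay between adjacent and APC mutant (-4.82, adjusted p = 0.00136), against -0.41 between tumour and adjacent, and Olfm4 mutant minus wild type colon was -2.55 (adjusted p = 0.033). Rabac1's difference between tumour and APC mutant changed sign with the 3' to 5' difference of the added bacterial RNAs as a covariate. That measure averaged 4.94 in tumour, 4.13 in adjacent, 2.75 in Olfm4 mutant, 2.31 in APC mutant and 2.12 in wild type. What part it has in the Rabac1 values was not tested. Vegfa showed 1.22 between adjacent and APC mutant and 0.18 between tumour and adjacent. The adjacent arrays were themselves uneven. Wif1 read 6.15, 5.95 and 9.89 on adjacent arrays 1, 2 and 3, Mmp7 7.19, 7.20 and 11.60 and Cxcl2 4.78, 4.69 and 8.30, so that adjacent array 3 lay between the other 2 and the tumours.

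**Figure D5:**
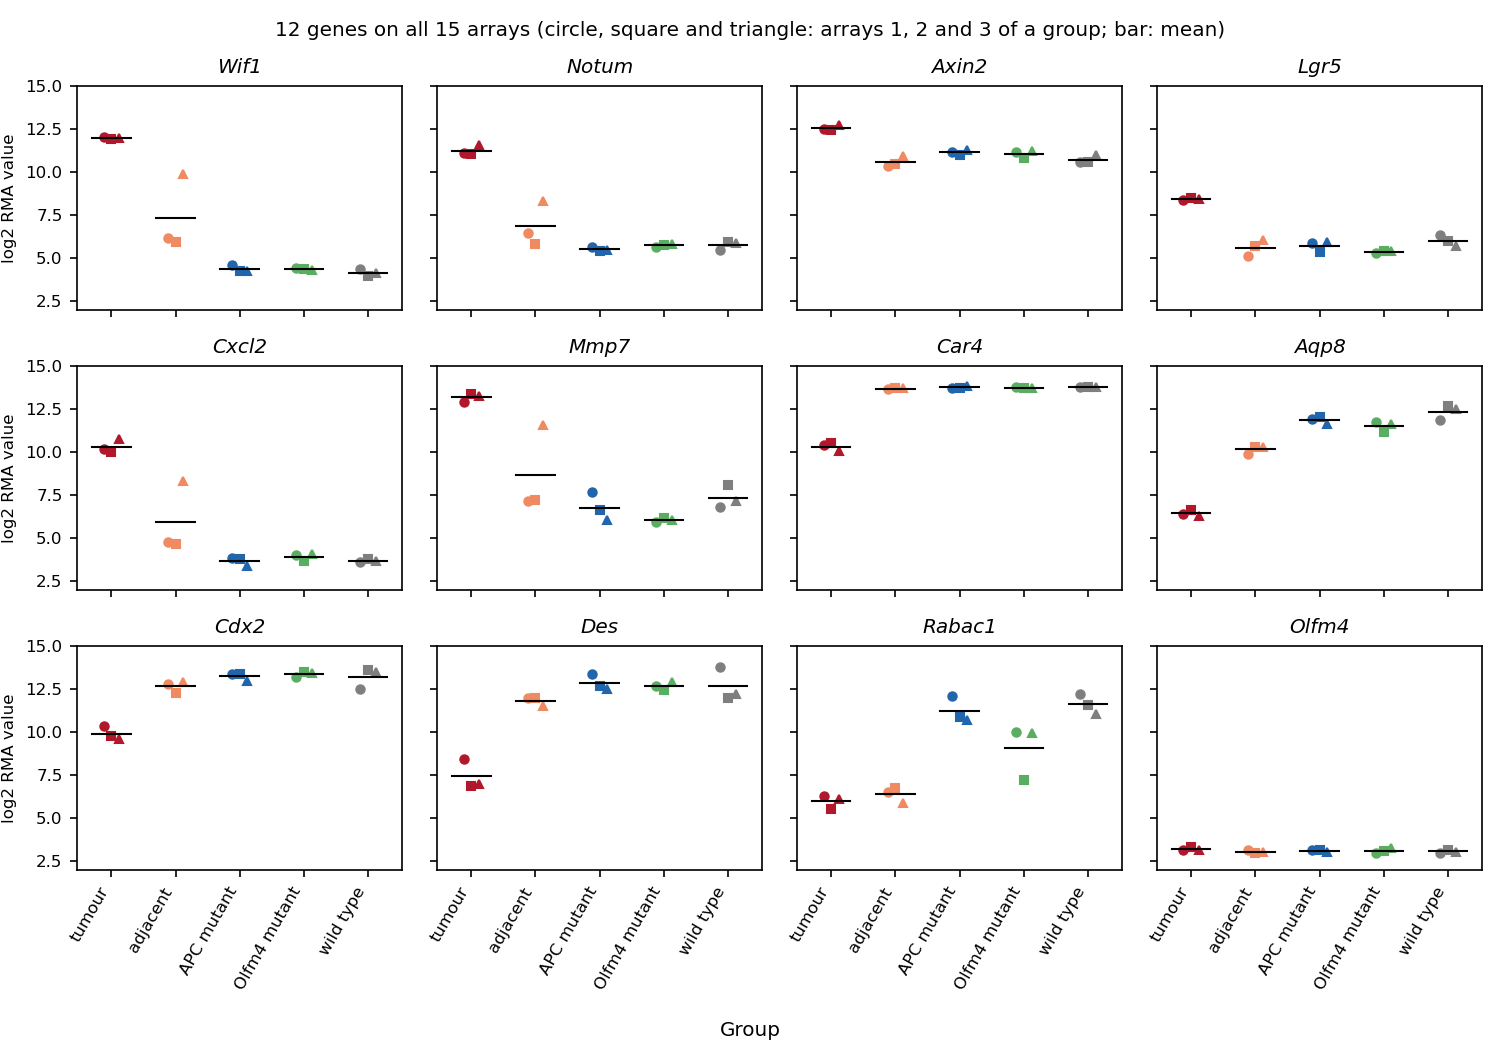
Log2 RMA values of 12 genes on all 15 arrays, with tumour leftmost, then adjacent, APC mutant, Olfm4 mutant and wild type. Adjacent array 3 lies towards the tumour arrays for Wif1 (9.89), Mmp7 (11.60) and Cxcl2 (8.30), Rabac1 is low in tumour and adjacent alike, and Olfm4 lies near 3 in every group.

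Genes around the Olfm4 locus were examined because tumour and adjacent tissue carry the mutant allele and APC mutant colon does not, and on a hybrid background neighbouring DNA can differ with the allele. Of the 20 measured genes on each side on chromosome 14, 11 were higher and 6 lower in tumour (42.5% changed, against 47.4% of all genes), with a median of 0.131. Within this window the transcription factor gene Klf12 rose by 1.61 ± 0.20 (adjusted p = 3.45e-05) and was higher also in adjacent tissue than in APC mutant colon (0.79) and in Olfm4 mutant than in wild type colon (0.71, adjusted p = 0.0494). Dis3, a catalytic subunit of the RNA exosome, rose by 1.49 ± 0.20 (adjusted p = 4.92e-05), with 0.59 between adjacent and APC mutant and 0.10 between Olfm4 mutant and wild type. The largest differences were those of the factor gene Dach1 (3.31) and the protocadherin gene Pcdh17 (-3.06), and Klf5, of crypt epithelium, fell by 1.27. Between adjacent and APC mutant Pcdh17 gave -2.76, Klf5 -0.80 and Dach1 0.73, the last without passing. Between Olfm4 mutant and wild type they gave -2.16 (not passing), -0.70 and 1.28. The window runs from base 77156248 to 101640471, with Olfm4 starting at 80000302, Dis3 at 99076634 and Klf12 at 99866181. Olfm4 mutant and wild type colon differed for 8 of the 40 (against 7.92% of all genes, 5.42% being higher and 2.5% lower), and adjacent and APC mutant colon for 7 (against 17.3%).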

How the data were processed

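Per the labels' protocols, RNA came from Trizol extracts, 6 µg of it gave biotin-labelled cRNA, and Affymetrix Mouse430_2 arrays were used. RMA and Partek 6.5 are named in the submitters' processing notes, and the deposited table holds log2 values. RMA sets all arrays to a common distribution, so a shift of most genes one way is largely removed, and array medians lay between 6.35 and 6.47. The genome build is not given in the sources used here.

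Of 45101 probe sets 34945 had 1 gene symbol in the platform annotation, and those with several (932) or none (9160) and 64 control probe sets were left out. Each gene was represented by its brightest probe set on average across the 15 arrays. Using limma 3.58.1 (R 4.3.3), 5 group means were estimated from the whole table, and tumour minus APC mutant was tested with Benjamini-Hochberg adjustment over 18193 genes. Every adjusted p of a gene is from limma. On simulated data with 200 changed genes this contrast recovered 68% of changes of 1 and 94% of changes of 2 on the log2 scale, with 8 false calls. The simulated noise was independent between arrays, without a shared animal or a 3' to 5' difference between groups. Far fewer genes changed in it than the 8629 called in the data. Its recovery and false calls therefore do not measure the error rate of those calls. For arrays, their number limits the precision.

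Genes were drawn from a pool set by rule. It held Olfm4, Apc and the 20 highest and 20 lowest differences of called genes without overlap between the groups (predicted symbols skipped). It also held the first 4 measured members of each of 52 lists with up to 6 further called members, and called neighbours of Olfm4. Not every list or gene of this pool is described, so the genes given for a list or for the Olfm4 window are a choice from it. Nkd2, Krt20, Hnf4a, Aqp4, Clca4a, Rgmb, Tff1, Fabp7, Prdm1, Rela, Relb, Nfkb2, C1qb, C1qc, Krt8, Krt19, Vil1, Epcam and further members of a few lists (Id2, Id3, Cldn8, Cldn12, Ocln, F11r, Gjb2, Gjb5, Il18, Nod1, Pnliprp2, Rnase1, Cela1 and Cpa1) were added after their values were seen, to complete a count or a comparison. The comparison, its lists and its alternatives were chosen with earlier results of these data known. Promoters were read from RefSeq tables of GRCm38.p6.

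Alternatives were the mean of all or the most variable probe set, only genes above the median mean, cyclic loess, a trend and robust prior, array weights, the 6 arrays alone, a fold change of at least 1.5, a random block for animal, averaging per animal, the spike-in difference as a covariate, and each array left out in turn.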

Additional observations from a re-analysis of the deposited data

Results flagged for a closer look

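Control probe sets, which no comparison of genes uses, differed between the groups. On the 3 tumour arrays the signal at the 3' end exceeded that at the 5' end by a mean of 4.94 on the log2 scale for the added bacterial RNAs, against 2.31 on the 3 APC mutant arrays. For the Gapdh control probe sets the tumour arrays averaged 4.57, against 0.663 on the APC mutant arrays. For the Actb control probe sets the tumour arrays averaged 4.29, against 1.83 on the APC mutant arrays. All 3 differences exceeded the spread among the arrays of a group. The part they have in the gene results was not tested, beyond the fit with the spike-in difference as a covariate.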

How the results depend on the processing

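Against 8629 genes called (5083 higher, 3546 lower; at least 2-fold 2151 and 1991), leaving out each array in turn gave 7445 to 7884 called, 4412 to 4551 higher, 3025 to 3361 lower, and at least 2-fold 2060 to 2215 higher and 1806 to 2087 lower. With the spike-in covariate 6 were called, 2 higher and 4 lower, and at least 2-fold 2 and 4. Genes above the median mean, a smaller set by construction, gave 5441 called, 2827 of them higher and 982 at least 2-fold higher. The most variable probe set gave 3162 at least 2-fold lower. Averaging the arrays of an animal gave 7223 called (Ctnnb1, Pcna, Foxa2, Nrg1, Kit, Usp18, Nkd2, Hnf4a, Rgmb and Tff1 among the lost calls), and animal as a random block (correlation 0.35) gave 7894. Of 227 genes examined singly 11 had the opposite sign and 195 lost their call with the spike-in covariate. The opposite signs were Rabac1 1.76, Ctnnb1 -0.09, Pyy 0.03, Nrg1 -1.04, C1qa 1.60, Gzmb -0.58, Usp18 -0.63, S100b 1.14, Hoxa9 -0.06, Hoxb13 0.11 and Id1 1.09, and the cause was not tested. Apc turned to -0.41 with the mean of all probe sets and -2.15 with the most variable one, and Ctnnb1 to -0.70 and -1.86. In each other setting 0 to 11 of the 227 genes lost their call and none turned. No paired analysis was possible because tumour and APC mutant arrays share no animal and their replicate numbers follow accession order only.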

Other observations

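Glucose metabolism changed in single steps. Slc16a3, the lactate exporter of hypoxic and glycolytic cells, gave 11.11, 10.87 and 11.02 on the tumour arrays, against 7.98, 6.99 and 7.36 on the APC mutant arrays, a rise of 3.56 ± 0.24 (adjusted p = 3.13e-07). Hk2, hexokinase 2, was lower at -0.70 ± 0.16 (adjusted p = 0.00356), and Ldha, lactate dehydrogenase A, gave 13.67, 13.74 and 13.70 on the tumour arrays, against 13.51, 13.57 and 13.61 on the APC mutant arrays, and did not pass. Of 13 glycolysis genes 5 were higher and 2 lower in tumour (38.5% and 15.4%). With the 6 arrays alone or a fold change of at least 1.5, 2 were higher, and with the most variable probe set 6 were lower.

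Claudins, which seal or open the space between epithelial cells, changed in both directions: Cldn6, Cldn12 and Cldn18 were higher and Cldn7, Cldn8 and Cldn15 lower. The embryonic Cldn6 rose by 6.20 ± 0.67 (adjusted p = 1.14e-05). Cldn15, a pore-forming claudin of the intestine, gave 7.60, 7.35 and 6.32 on the tumour arrays, against 11.58, 10.37 and 10.11 on the APC mutant arrays, a difference of -3.60 ± 0.46 (adjusted p = 3.85e-05), and Cldn7 fell by 2.15 ± 0.17 (adjusted p = 1.13e-06). Cldn18, of stomach and lung, rose by 2.08 ± 0.24 (adjusted p = 1.95e-05), and so did the gastric peptide gene Gkn1 by 1.62 ± 0.11 (adjusted p = 2.79e-07), both at low levels, with 6.93, 6.76 and 6.71 for Gkn1 in tumour against 5.17, 5.30 and 5.09 in APC mutant. Of 19 claudin and junction genes 3 were higher and 8 lower, the other lower ones being Ocln, Epcam, F11r, Gjb2 and Gjb5.

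Hox genes mark position along the gut. Of 16 in a list of mostly posterior ones, 3 rose and 4 fell (18.8% and 25%, against 27.9% and 19.5% of all genes). Without APC mutant array 2 or 3 or tumour array 2 only 1 rose. The list also holds Hoxb5, Hoxb6 and Hoxb7, which are not posterior, with Hoxb5 among those that fell and Hoxb7 among those that rose. Hoxa9 rose by 1.47 ± 0.24 (adjusted p = 0.000249) and Hoxb13, of the most distal colon, fell by 0.84 ± 0.17 (adjusted p = 0.00117). Both changed sign with the 3' to 5' difference of the added bacterial RNAs as a covariate. Among 17 clock genes 3 rose and 6 fell, with Nr1d1, the repressor Rev-erb alpha, at 7.73, 7.39 and 7.21 on the tumour arrays, against 10.95, 10.39 and 10.77 on the APC mutant arrays. Leaving out single arrays left 1 or 2 higher and 3 to 7 lower (3 without APC mutant array 3), and Per2 overlapped between the groups, with 8.03, 7.52 and 7.33 on the tumour arrays, against 6.87, 8.51 and 8.27 on the APC mutant arrays.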
